A study of Homo sapiens with 2 samples.

Results

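The accessible chromatin of 8 genes that encode subunits of SWI/SNF complexes was described in Z-138 cells, an established human mantle cell lymphoma line, with and without knockdown of SMARCA4. The genes are SMARCA4, SMARCA2, SMARCB1, ARID1A, ARID1B, ARID2, PBRM1 and BCL7A. For each gene a fixed span of the genome build hg19 was given, and every ATAC-seq peak that overlapped a span by at least 1 bp was taken as a member. The 8 spans held 51 of the 55124 peaks of the control library and 43 of the 41540 peaks of the knockdown library. ATAC-seq marks open chromatin by the insertion of sequencing adapters with a transposase, and each peak is called an accessible region here. The control cells carried a control shRNA and the other cells an shRNA that knocks down SMARCA4, and the labels state doxycycline in the culture of both. Each group is 1 library of this 1 cell line. Differences between the libraries therefore have no replicate check, no test between groups was made, and the intervals given cover counting error only.

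SWI/SNF complexes use the energy of ATP to slide or evict nucleosomes, which opens promoters and enhancers to transcription factors. Each complex holds a catalytic ATPase, either SMARCA4 (BRG1) or its paralog SMARCA2 (BRM), and SMARCB1 is a core subunit of the canonical BAF and PBAF forms. ARID1A and ARID1B are alternative subunits of the canonical BAF form, ARID2 and PBRM1 belong to the PBAF form, and BCL7A is an accessory subunit. Genes of these subunits are mutated in many cancers, lymphomas of B cells among them. The series' title and design connect loss of SMARCA4 with how mantle cell lymphoma responds to the BTK kinase inhibitor ibrutinib and the BCL2 inhibitor venetoclax, and neither drug is named in the labels of these libraries.

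The sequences at the starts of the genes for the alternative ATPases are shown first, because SMARCA4 is the gene that was targeted and SMARCA2 encodes the subunit that can take its place. They are the 250 bases before the first start that RefSeq annotates for each gene (build GRCh38.p14), written 5′ to 3′ along the gene, with each GC box (GGGCGG or its reverse complement) in capitals.
SMARCA4, chr19:10960780-10961029, plus strand: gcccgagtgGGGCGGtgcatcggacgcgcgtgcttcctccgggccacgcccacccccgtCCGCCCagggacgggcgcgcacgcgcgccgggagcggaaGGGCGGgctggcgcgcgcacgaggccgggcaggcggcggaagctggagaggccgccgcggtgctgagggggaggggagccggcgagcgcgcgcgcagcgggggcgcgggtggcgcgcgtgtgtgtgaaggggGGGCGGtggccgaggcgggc
SMARCA2, chr9:2015097-2015346, plus strand: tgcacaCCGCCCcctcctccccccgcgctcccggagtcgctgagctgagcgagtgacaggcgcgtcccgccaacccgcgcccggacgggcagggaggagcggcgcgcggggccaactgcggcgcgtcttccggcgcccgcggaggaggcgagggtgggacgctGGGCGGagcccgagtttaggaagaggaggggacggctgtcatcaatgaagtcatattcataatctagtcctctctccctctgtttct

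Both stretches are rich in G and C. The SMARCA4 stretch held 82.4% G or C and 44 CG dinucleotides, and the SMARCA2 stretch 68.8% and 29. The median over 27305 genes, at their first listed start, was 58% and 11. GC boxes matched at 4 places in SMARCA4 and at 2 in SMARCA2, and 42.3% of the 27305 stretches held at least 1. Searches on both strands for the CCAAT box, the E-box CACGTG and the AP-1 motif TGANTCA found 0 matches in either stretch, where 33.0%, 6.49% and 6.60% of all stretches held them. A sequence motif is a match of letters and not a bound site. The RefSeq positions are of another build than the peaks, so they were not set against the regions below, and no region is assigned to a promoter, exon or intron. Promoter entries were found for 7 of the 8 genes, ARID2 being the exception.

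The spans are wider than the genes. They measure 80 to 470 kb, 1520 kb in all, and exceed the RefSeq length of their gene by between 29.0 kb (SMARCB1) and 43.9 kb (ARID1A). A region, above all near the edge of a span, can therefore belong to a neighbour. In the spans of 80 kb the gene itself measures 40.2 kb for BCL7A and 51.0 kb for SMARCB1.

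The peak lists give a fold for each region, which is the reads stacked at the summit over the expected background, each with 1 read added. Fold and p-value together returned the whole number of reads at the summit, called the pileup, and the background in reads per 10 kb around it. Read numbers were inferred from the lowest background of each list, these lengths and an assumed genome size of 2.7 Gb. They came to 6.89 M for the control library and 9.76 M for the knockdown library. The lowest background of the knockdown list was 1.34 times that of the control list, and ratios scaled by depth are divided by this factor. The scaling assumes that summits of equal accessibility differ by the same factor, which was not tested. Control regions were called from 3 reads at the summit upward, and knockdown regions from 4. A region outside a list is one that was not called at this depth, not one shown to be closed. Peak lists measure neither RNA nor protein, so the knockdown itself could not be checked.

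Most regions of the spans were found in both libraries, and the spans lost fewer regions than the genome in number, though not beyond counting error. The knockdown held 43 regions for 51 in the control, or 84.3% (95% interval 54.9 to 129%), where the whole genome gave 75.4%. The direction depended on how weak regions were treated. At a q-value of at most 0.001 the spans held 42 knockdown and 46 control regions, and at most 1e-05 they held 32 and 33. With a lower limit of 5 on the fold, knockdown regions outnumbered control regions, 37 against 35, and likewise 43 against 38 when the control list was shortened to the length of the knockdown list. The genome percentage rose under the same limits, to 81.7% and 84.8% at the q-values and 87.9% at the fold. With equal lists it is 100% by construction. Of the 51 control regions, 35 had an overlapping knockdown region, called a partner here, which is 68.6% (exact binomial interval 54.1 to 80.9%), and 16 had none. Over the genome 39.5% of control regions had no partner, against 16 of 51 here. In the other direction, 34 of the 43 knockdown regions were overlapped by a control region, or 79.1% (64.0 to 90.0%), and 9 were not. Over the genome 20.6% of knockdown regions had no partner. Stronger regions find a partner more often. When each span region was given the share of its fold band over the genome, 56.8% of the control and 77.0% of the knockdown regions were due a partner, and both values lie inside the intervals above. The span regions covered 11277 bp of the genome in control cells, against 9999 bp in knockdown cells.

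**Figure D1:**
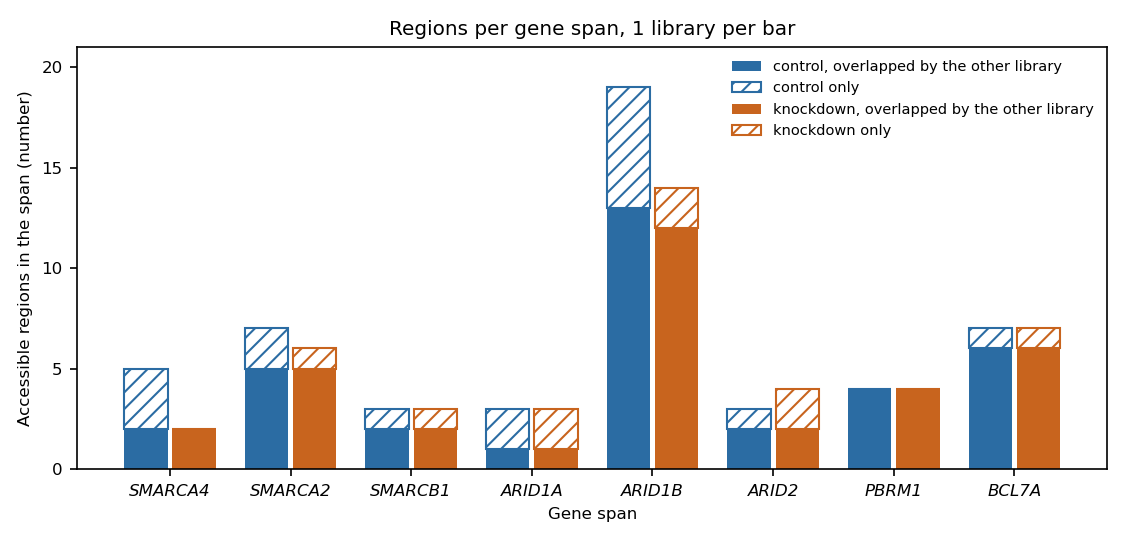
Number of accessible regions (vertical axis) in each gene span, with 1 bar for each library; the solid part of a bar has an overlapping region in the other library and the hatched part has none. SMARCA4 shows 5 control against 2 knockdown regions and ARID1B 19 against 14, while SMARCB1, ARID1A, PBRM1 and BCL7A show equal numbers.

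The genes differed in how their regions were spread. ARID1B, the longest span, held 19 control and 14 knockdown regions, or 4.04 and 2.98 per 100 kb. The BCL7A span was the most densely occupied, with 7 regions in either library on 80 kb, or 8.75 per 100 kb. The gene takes up 40.2 kb of this span, and the regions were not placed inside or outside it. ARID2 was the sparsest in the control, with 1.36 per 100 kb. The number of regions was lower in the knockdown in 3 spans (SMARCA4, SMARCA2 and ARID1B), equal in 4 and higher in 1 (ARID2, with 3 control and 4 knockdown regions). All 12 control and all 12 knockdown regions of at least 300 bp in the spans had a partner, a share near that of the genome, where 9149 of 9620 control and 9026 of 9120 knockdown regions of that width had one. A SMARCA4 control region of 299 bp, just under this width, had none.

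**Figure D2:**
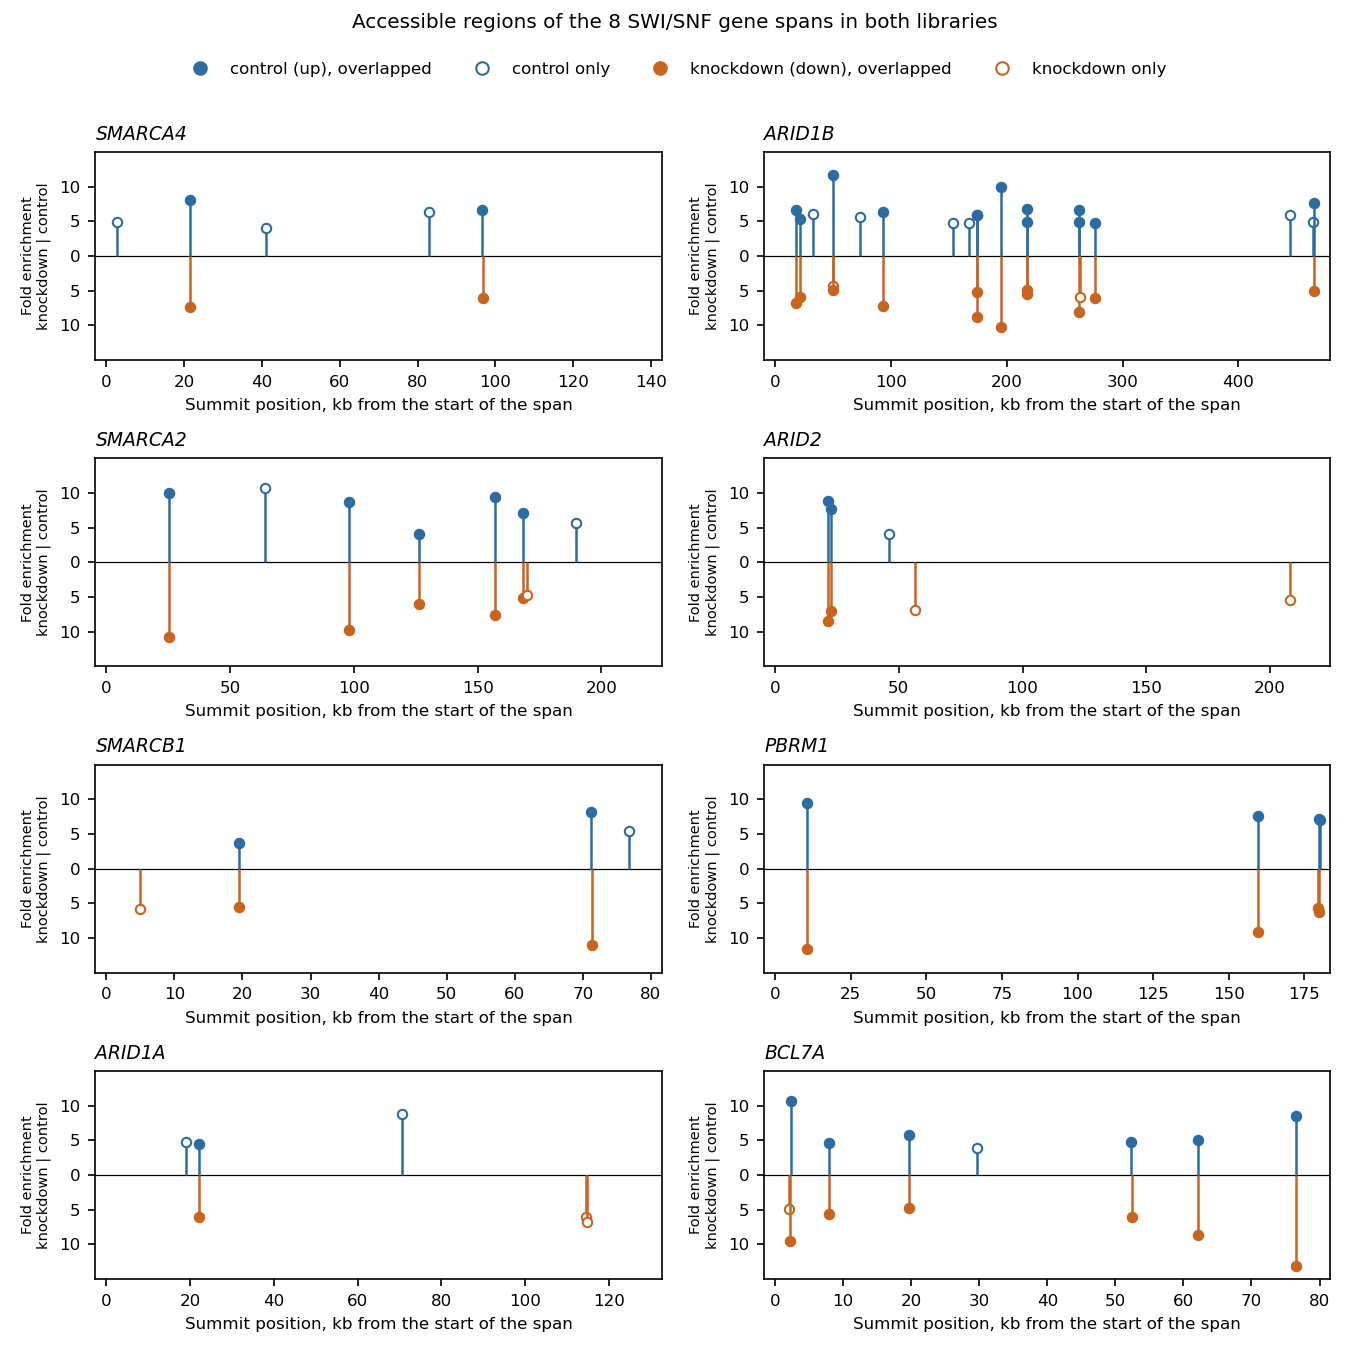
Position of each region's summit in kb from the start of its span (horizontal axis) against its deposited fold enrichment, with control regions drawn upward and knockdown regions downward. Filled points have an overlapping region in the other library and open points have none; PBRM1 has filled points only, SMARCA4 has open points only among its control regions, and the other 6 spans have open points in both directions.

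SMARCA4, the ATPase gene targeted by the shRNA, had 5 control regions and 2 knockdown regions, and both knockdown regions overlapped a control region. The strongest region of either library lay at chr19:11071373-11071623 in the control, with a fold of 8.05 and 10 reads, and at chr19:11071374-11071738 in the knockdown, with a fold of 7.31 and 11 reads. Scaled by depth, the log2 ratio of knockdown to control was -0.29 (95% counting interval -1.66 to 1.11). The summits stood 119 bp apart. Against the reads of the surrounding 10 kb the log2 ratio was -0.67, with backgrounds of 39.0 reads per 10 kb in the control and 72.0 in the knockdown. Thus a region of like position was present in both libraries, with 10 and 11 reads at its summit.

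The widest SMARCA4 region narrowed between the lists. In the control it ran over 514 bp at chr19:11146243-11146756 with a fold of 6.68 and 8 reads, and in the knockdown over 131 bp at chr19:11146683-11146813 with a fold of 6.05 and 7 reads. They share 74 bp at the end of the control region, and the log2 ratio was -0.62 (-2.31 to 1.04). The other 3 control regions had no knockdown partner. The strongest of them, chr19:11132661-11132959, had a width of 299 bp, a fold of 6.41 and 8 reads, and the nearest knockdown region was 13.7 kb away. The remaining ones were weak: chr19:11052829-11052940 had a fold of 4.84 and 5 reads, and chr19:11090911-11091004 a fold of 4.03 and 4 reads. Of all control regions in their fold bands, 31.9% and 25.8% had a partner, and 62.3% in the band of the strongest. The share of SMARCA4 control regions with a partner, 2 of 5, has an exact interval of 5.27 to 85.3%, which holds the 60.5% of the genome. The kept 8.05-fold region is stronger than the 6.41-fold region without a partner, and 81.2% of control regions in the band of the former had a partner.

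SMARCA2, the gene of the alternative ATPase, kept 5 of 7 control regions, and 5 of its 6 knockdown regions had a control partner. Its widest region was also among the highest stacks of reads in the spans. It lay at chr9:2014900-2015483 in the control (584 bp, fold 10.0, 35 reads) and at chr9:2014838-2015397 in the knockdown (560 bp, fold 10.8, 43 reads). The summits were 4 bp apart, and the log2 ratio by depth was -0.13 (-0.80 to 0.56). With 35 and 43 reads this is among the best measured pairs, and no difference in either direction was detectable.

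The strongest SMARCA2 region of the control list had no counterpart. At chr9:2053978-2054151 the control held 13 reads over 174 bp, with a fold of 10.7, and the nearest knockdown region was 33.7 kb away. In the fold band from 10 to 12, 92.0% of 4752 control regions had a knockdown partner, and of all control regions with a fold of at least 10, 5.32% had none. This was the only 1 of 4 span regions of that fold without a partner. The other SMARCA2 region without one, chr9:2179682-2179793, had a fold of 5.65 and 6 reads. The remaining 4 shared regions went in both directions. At chr9:2087818-2088121 the control had 10 reads and the knockdown 12 (log2 ratio -0.16), and at chr9:2116304-2116397 there were 4 and 7 reads (0.38). At chr9:2146720-2146932 there were 11 and 9 reads (-0.71), and at chr9:2158281-2158381 there were 10 and 8 (-0.75). All 4 intervals include 0. The knockdown-only region, chr9:2159981-2160094, had a fold of 4.67 and 7 reads and lay 1.60 kb from a control region.

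SMARCB1, the gene of a core subunit found in BAF and PBAF, had 3 regions in each library, 2 of them shared. The strongest and widest control region was at chr22:24181021-24181612, with 592 bp, a fold of 8.21 and 12 reads. Its partner was the strongest and widest knockdown region, chr22:24181199-24181526, with 328 bp, a fold of 10.96 and 20 reads. The pileup ratio was 1.24 after scaling (log2 0.31, -0.79 to 1.48), so the larger read number in the knockdown is within counting error. The other shared region was weak in both lists, with 4 reads over 127 bp at chr22:24129510-24129636 in the control and 7 reads over 296 bp in the knockdown. A control-only region at chr22:24186744-24186837 had a fold of 5.42 and 6 reads. A knockdown-only region at chr22:24114861-24115024 had a fold of 5.75 and 7 reads.

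ARID1A, a DNA-binding subunit of BAF, shared 1 of its 3 regions in each library. The shared region lay at chr1:27021997-27022169 in the control (fold 4.56, 6 reads) and at chr1:27022032-27022121 in the knockdown (fold 6.02, 10 reads). Its log2 ratio was 0.31 (-1.29 to 2.06). The strongest and widest control region, chr1:27070587-27070791 with 205 bp, a fold of 8.87 and 10 reads, had no partner, and the nearest knockdown region was 43.5 kb away. In its fold band 81.2% of control regions had a partner. Another control region, chr1:27018985-27019120, had 6 reads and lay 2.91 kb from the shared one. The knockdown list held a close pair without control partners, chr1:27114325-27114515 with a fold of 6.08 and 8 reads, and chr1:27114601-27114801 with a fold of 6.75 and 9 reads. The second is the strongest and the widest knockdown region of the span. Both lie over 32 kb from the nearest control region. In this fold band 76.8% of knockdown regions had a control partner.

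ARID1B, the alternative to ARID1A in BAF, had the most regions of the 8 genes. Of 19 control regions 13 had a partner, and of 14 knockdown regions 12 had one. The strongest control region of all 8 spans, chr6:157130299-157130424, had a fold of 11.7 and 15 reads over 126 bp. Its knockdown partner, chr6:157130329-157130417, had a fold of 4.94 and 6 reads over 89 bp, the smallest width in that list, with a summit 7 bp away. Scaled by depth, 20.1 reads stood against 6, a ratio of 0.298 (0.0948 to 0.813) and a log2 ratio of -1.75 (-3.40 to -0.30). This was the 1 pair of 35 whose counting interval lay wholly on 1 side of 0. The ratio was also low against the reads of the surrounding 10 kb, at -1.51. Backgrounds there were 39.0 reads per 10 kb in the control and 47.0 in the knockdown. Over the genome, 1.62% of the 33358 pairs had a ratio as low or lower. Among the 11418 pairs with at least 15 control reads, 481 did, or 4.21%. The region was picked as the lowest of 35, so its interval does not allow for that choice.

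The next lowest pairs were also in ARID1B. At chr6:157545378-157545723 the control held 20 reads over 346 bp and the knockdown 13 reads over 173 bp, with a log2 ratio of -1.05 (-2.17 to 0.03). At chr6:157297722-157297842 there were 10 and 7 reads, with a log2 ratio of -0.94 (-2.57 to 0.60). Against local reads these values shrank to -0.65 and -0.48. Of the 13 ARID1B pairs, 9 had a ratio below 0 and 4 above it, and 4 were at least 1.5 times lower in the knockdown. The fourth of these, at chr6:157254397-157254495, had 7 control and 6 knockdown reads (-0.65, -2.50 to 1.15). Both counts are near the genome, where 23481 of 33358 pairs lay below 0 and 26.5% were at least 1.5 times lower. Against local reads the ARID1B median was 0.03 over 12 pairs, 6 of them below 0. The strongest knockdown region, chr6:157274806-157274931, had a fold of 10.3 and 14 reads for 13 in the control (-0.32, -1.51 to 0.89). A wide region at chr6:157098293-157098745 had 15 control and 17 knockdown reads (-0.24, -1.33 to 0.86).

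The widest ARID1B region was made of different pieces in the lists. The control held 152 bp at chr6:157342170-157342321 with 10 reads and 640 bp at chr6:157342394-157343033 with 14 reads. The knockdown held 1 region over both, 816 bp at chr6:157342228-157343043 with a fold of 8.04 and 21 reads, and a further 192 bp at chr6:157343213-157343404 with a fold of 5.89 and 15 reads. The last region is the strongest of the knockdown-only regions in ARID1B, but a control region ended 179 bp before it. Against the wide control region the log2 ratio of the merged region was 0.16 (-0.88 to 1.25), and against the small piece 0.65 (-0.50 to 1.90). The second value compares different summits, 472 bp apart, although it is among the 3 highest ratios of the spans. Of the 6 ARID1B control regions without a partner, the strongest was chr6:157112538-157112648, with a fold of 6.02 and 7 reads. The others had 5 to 11 reads, and the one with 11 reads, chr6:157544388-157544514, lay 914 bp from a knockdown region.

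**Figure D3:**
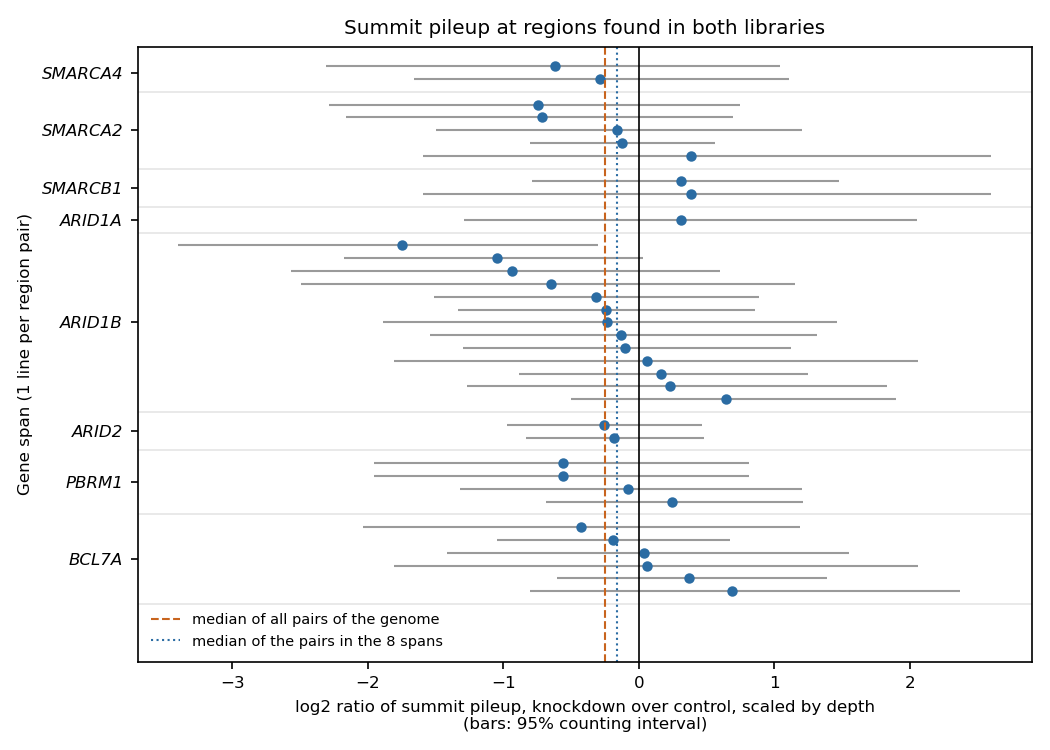
Depth-scaled log2 ratio of summit pileup, knockdown over control (horizontal axis), for each of the 35 region pairs, grouped by gene span, with 95% counting intervals as bars; vertical lines mark 0, the median of the spans (-0.16) and the median of all pairs of the genome (-0.25). The lowest ARID1B pair, at -1.75, is the 1 pair whose bar does not reach 0.

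ARID2, a subunit of PBAF, held the highest pileup of either library in the 8 spans. Its control regions at chr12:46121292-46121672 and chr12:46122520-46122917 had 38 and 33 reads, with folds of 8.88 and 7.69. The knockdown regions in the same places had 45 and 37 reads, with folds of 8.50 and 7.02. The log2 ratios were -0.18 (-0.84 to 0.48) and -0.26 (-0.98 to 0.46), so neither region differed beyond counting error. The widest region was the second in both lists, with 398 and 426 bp. The local background was high there, at 361 and 364 reads per 10 kb in the control and 496 in the knockdown. The genome-wide median at regions was 44.0 and 64.0, and 0.221% of control regions had a background as high as 361. The background counts the reads of the regions themselves. Away from this place ARID2 had 1 weak control region, chr12:46146073-46146166 with 4 reads. The knockdown had chr12:46156447-46156557 with a fold of 6.81 and 8 reads and chr12:46308096-46308208 with 7 reads, none with a partner. The region with 8 reads is the strongest of all 9 knockdown-only regions.

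PBRM1, the polybromo subunit of PBAF that binds acetylated histones, was the span in which every region of both lists had a partner, 4 of 4 in each. With 4 regions the exact interval of this share reaches down to 39.8%. The strongest region lay at chr3:52570352-52570723 in the control, with a fold of 9.46 and 17 reads, and at chr3:52570353-52570721 in the knockdown, with a fold of 11.6 and 27 reads. The region kept its edges within a few bp, and its log2 ratio was 0.24 (-0.68 to 1.21). The widest region, chr3:52719527-52720101, was 575 bp wide in the control with 11 reads and 531 bp wide in the knockdown with 14 reads (-0.08, -1.32 to 1.21). Near the edge of the span the boundaries shifted. The control had regions at chr3:52739597-52739861 and chr3:52739980-52740222 with 11 reads each, and the knockdown had chr3:52739559-52739647 with 9 reads and chr3:52739720-52740247 with 10 reads over 528 bp. Both control regions were paired with the wide knockdown region, at a log2 ratio of -0.56. The summit of the second control region stood 351 bp from the knockdown summit, so its ratio compares different summits, and the same knockdown summit enters the PBRM1 median in both pairs.

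BCL7A, an accessory subunit of BAF, kept 6 of 7 control regions, and 6 of 7 knockdown regions had a partner. The gene fills 40.2 kb of its 80 kb span, so some of these regions can belong to a neighbour. The strongest knockdown region of all 8 spans, chr12:122516305-122516764, had a fold of 13.1 and 26 reads over 460 bp, and is also the widest of its span. Its control partner, chr12:122516447-122516717, had a fold of 8.58 and 15 reads over 271 bp, and the log2 ratio was 0.37 (-0.60 to 1.39). The highest ratio of the 35 pairs was at chr12:122502025-122502207, with 6 control and 13 knockdown reads and a log2 ratio of 0.69 (-0.80 to 2.37). The knockdown stack is higher at both places, and both intervals include 0. The strongest and widest control region, chr12:122442199-122442561, had a fold of 10.8 and 23 reads for 27 in the knockdown (-0.19, -1.05 to 0.68). Beside it lay the 1 knockdown-only region of the span, chr12:122442002-122442107 with a fold of 4.83 and 13 reads, 91 bp from the control region. The 1 control-only region, chr12:122469630-122469723, had a fold of 3.93 and 4 reads. In 5 of the 6 BCL7A pairs the region was wider in the knockdown, where 47.5% of all pairs of the genome were. One of the 6 rests on an overlap of 4 bp, at chr12:122492316-122492409, and its regions had 5 and 7 reads.

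Over the 35 pairs of the 8 spans the depth-scaled pileup leaned to lower values in the knockdown, as over the genome, and by no more than there. The median log2 ratio was -0.16 (interval of the median -0.29 to 0.06), with 22 pairs below and 13 above 0. Over all 33358 pairs it was -0.25, with 23481 below and 9877 above 0. With the median of all pairs set to 0 instead, the median of the spans became 0.086. Against the reads of the surrounding 10 kb the median was 0.00 over 30 pairs and -0.13 over the genome. A pileup at least 1.5 times lower in the knockdown was seen in 7 of 35 pairs, where 26.5% of all pairs showed it. A pileup at least 1.5 times higher was seen in 2 of 35, where 4.71% did. Medians by gene ran from -0.45 over the 2 SMARCA4 pairs and -0.32 over the 4 PBRM1 pairs to 0.05 over the 6 BCL7A pairs, 0.31 in the 1 ARID1A pair and 0.35 over the 2 SMARCB1 pairs. With so few pairs a gene these are given as values and not as an order. Of the 35 intervals, 34 include 0 and 34 include the genome-wide median. Summits of a pair were a median 34 bp apart, against 28 bp over the genome.

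The regions found in 1 library were mostly weak, as over the genome. The 16 control-only regions of the spans had a median fold of 5.17 and 6 reads, against 6.75 and 10 reads for the 35 with a partner. The 9 knockdown-only regions had medians of 5.75 and 8 reads, against 6.52 and 11 reads. No knockdown-only region exceeded a fold of 6.81, while 2 control-only regions had a fold above 8, those of SMARCA2 and ARID1A described above. They are 2 of 13 control regions of at least that fold, or 15.4%, where the genome gave 9.91%. In the knockdown 0 of 12 had no partner, where the genome gave 2.12%.

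**Figure D4:**
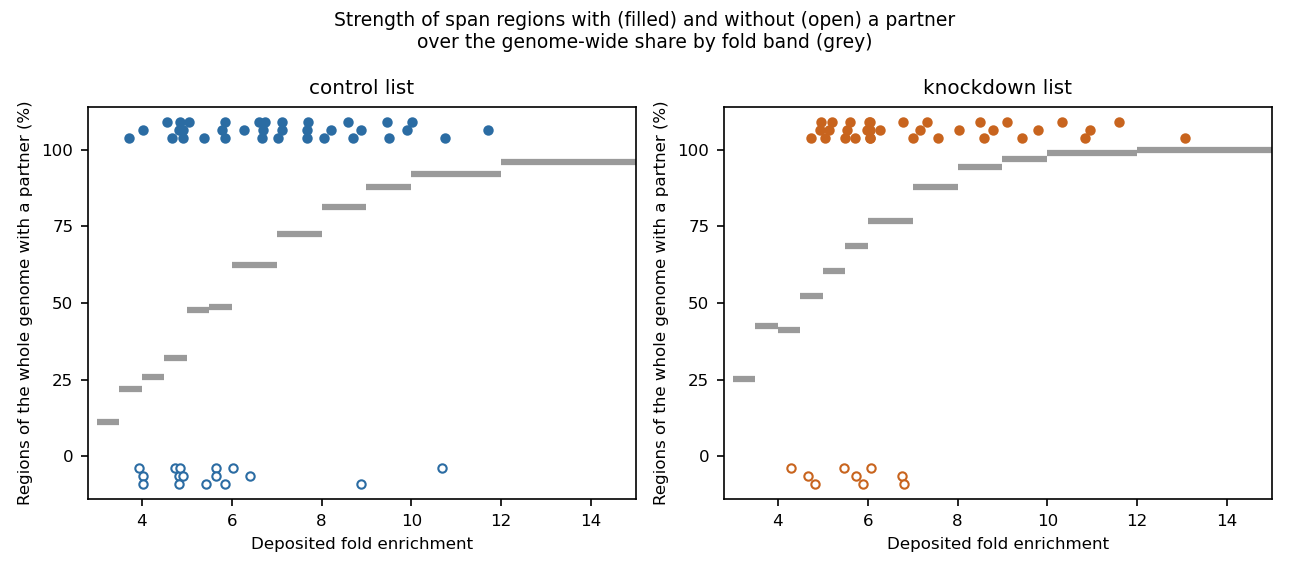
Deposited fold enrichment (horizontal axis) of the span regions with an overlapping region in the other library (filled points, drawn above 100%) and without one (open points, drawn below 0%); the small vertical offsets only separate the points. Grey steps give the percentage of all regions of the genome in a fold band that had a partner; open control points at folds of 8.87 and 10.7 lie where the grey steps stand at 81.2% and 92.0%.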

How the data were processed

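ATAC-seq libraries of Z-138 cells, 1 of control shRNA cells and 1 of SMARCA4 knockdown cells, were grouped by their genotype labels. Per the submitters' processing notes, the authors used bcl2fastq 2.17.1.14, BWA, MACS2 and the build hg19 (parameters, other versions and any shift of insertion sites: not given in the sources used here). The terms sort, rmdup and DMSO stand in the peak names of both deposited lists. Each deposited list gives per peak a fold ratio, −log10 p- and q-values of the summit and a score made from the q-value. Chromosome Y was left out, with 135 control and 71 knockdown peaks. The q-values reached 0.0479 (control) and 0.0499 (knockdown).

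Summit pileup and background were solved from the deposited fold and p-value under a Poisson tail, with the −log10 p-values returned within 4.15e-05. Tested on simulated data, the pileup came back for 54877 of 54884 control and 41390 of 41390 knockdown peaks. Backgrounds above the lowest were whole reads per 10 kb within 0.00117 reads. A control region was paired with the knockdown region that overlapped it most. Shares carry exact Clopper-Pearson intervals and ratios of counts an exact binomial interval, both at 95%; reads without molecular identifiers are not independent molecules. Expected shares used 13 fold bands of the whole genome. Analyses used Python 3.11.15, scipy 1.17.1 and pandas 2.3.3.

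The 8 genes and their spans were chosen with earlier results of these data known. Named were all genes, the strongest and widest region of each span and library, every SMARCA4 region, the strongest region without a partner per span and library, and the 3 pairs farthest from 0 in each direction; other regions named were picked after their values were seen. Other SWI/SNF genes were not placed, since an hg19 annotation was not used here.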

Additional observations from a re-analysis of the deposited data

How the results depend on the processing

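With 1 library per group no library could be left out. No paired analysis was possible because each group holds 1 library. Limits on q-value or fold, equal list lengths, other overlap rules, other span edges, leaving out each span and other scalings gave 78 values for the summary results of the 8 spans. Of these, 73 stayed inside the interval of the reported value without changing sides, and 5 changed sides. For the covered length this is the interval of the region count, rescaled, and not a counting error of base pairs. Among the 5, only the median log2 ratio of 0.086 also left its interval. The intervals are wide, so staying inside them says little about stability. The knockdown regions as a percentage of control regions, 84.3%, became 105.7% at a fold of at least 5 (87.9% over the genome) and 113% with lists of equal length. The covered length, 88.7%, became 102% with lists of equal length. Equal lists shorten only the control list by construction, and for the fold limit the cause was not tested. The difference of the knockdown share from that given by strength, 2.11 percentage points, became -0.21 with bands of pileup, and the median log2 ratio, -0.16, became 0.086 with the median of all pairs set to 0; the cause of the former was not tested. Without each span in turn the region percentage ranged from 81.2 to 90.6% and the control share from 65.9 to 71.7%. The control share ranged from 54.9% with reciprocal overlap of 50% (49.0% over the genome) to 76.3% with lists of equal length (71.7%). At a fold of at least 5 it was 68.6% against 68.4% over the genome, and at a q-value of at most 1e-05 63.6% against 66.8%. The knockdown share fell to 64.9% against 77.1% over the genome at that fold, and to 65.6% against 78.2% at that q-value. It was highest, at 83.7%, with a gap of up to 500 bp (84.4%). Of 299 values for single genes or pairs, 49 moved, mostly counts under stricter limits. Most of the 299 are region counts, which have no direction to reverse. None of the ratios of single pairs reversed, but these pairs were picked as the farthest from 0, so this says little about stability. With the stricter q-value of 1e-05 or a fold of 5, ARID1A had 0 shared regions, and with 50% overlap SMARCA4 had 1. Most summits hold under 15 reads, which limits single ratios.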
